A study of Mus musculus with 4 samples.

Results

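The genes examined here encode the machinery of mTORC1 and of the nutrient sensing that controls it, 34 protein-coding genes in all, named by symbol. They were looked up as the assigned gene of each peak in a ChIP-seq map of ATF4 in mouse regulatory T cells. Of the 4544 peaks of that map, 13 were assigned to 9 of the 34 genes, and 25 genes had none. The labels give 2 ATF4 immunoprecipitates and 2 inputs, numbered 1 and 2 in each group, all from spleen cells enriched for CD4 and CD25. Inputs were 1% of the sheared chromatin, set aside before precipitation. No treatment, genotype, strain or age is named in the labels, and the design text adds lymph nodes to the spleen. Only 1 peak list for the whole series was used, so no value below has a replicate error and no test between samples was possible. The depth of each sample is unknown. Fold enrichment is the authors' value for the summit of a peak, relative to the background estimated by the peak caller, and −log10 q is theirs as well. RNA was not measured in these samples, so the identity of the cells was not checked against marker expression.

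mTORC1 is a kinase complex at the lysosome that couples amino acid supply and growth signals to protein synthesis. Amino acids recruit it through the Rag GTPases on their Ragulator anchor, and the small GTPase Rheb switches it on there. The TSC complex shuts off Rheb, GATOR1 shuts off the Rag GTPases, and the sestrins and CASTOR proteins hold GATOR1 active when leucine or arginine is short. ATF4 is the transcription factor made when amino acids run low or translation is stressed, and Ddit4, Sesn2 and Eif4ebp1 are among its known targets in other cells. In regulatory T cells mTORC1 activity is known to be needed for suppressive function.

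ATF4 peaks lay at both sides of the pathway, and those of the highest fold enrichment lay at 2 of its inhibitors. Among the 12 negative regulators named by the rule (Ddit4, the sestrins, the Eif4ebp genes, the TSC complex and GATOR1), 6 had at least 1 promoter peak, or 50%. Among the 15 genes of the activating machinery, 3 had one, or 20%. A promoter peak was thus assigned to 9 of the 34 genes (26.5%), and to 11.3% of the 21887 protein-coding genes on the main chromosomes, many of which may be silent in T cells. A promoter peak is one of the authors' Promoter class, which reached 2.97 kb from a transcription start site (TSS). Counting peaks of any class left the 34 genes at 9 with a peak and brought all protein-coding genes to 12.9%. The difference between inhibitors and activators was not tested, since the gene groups were chosen with earlier results of these data known and no value per sample was at hand.

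**Figure D1:**
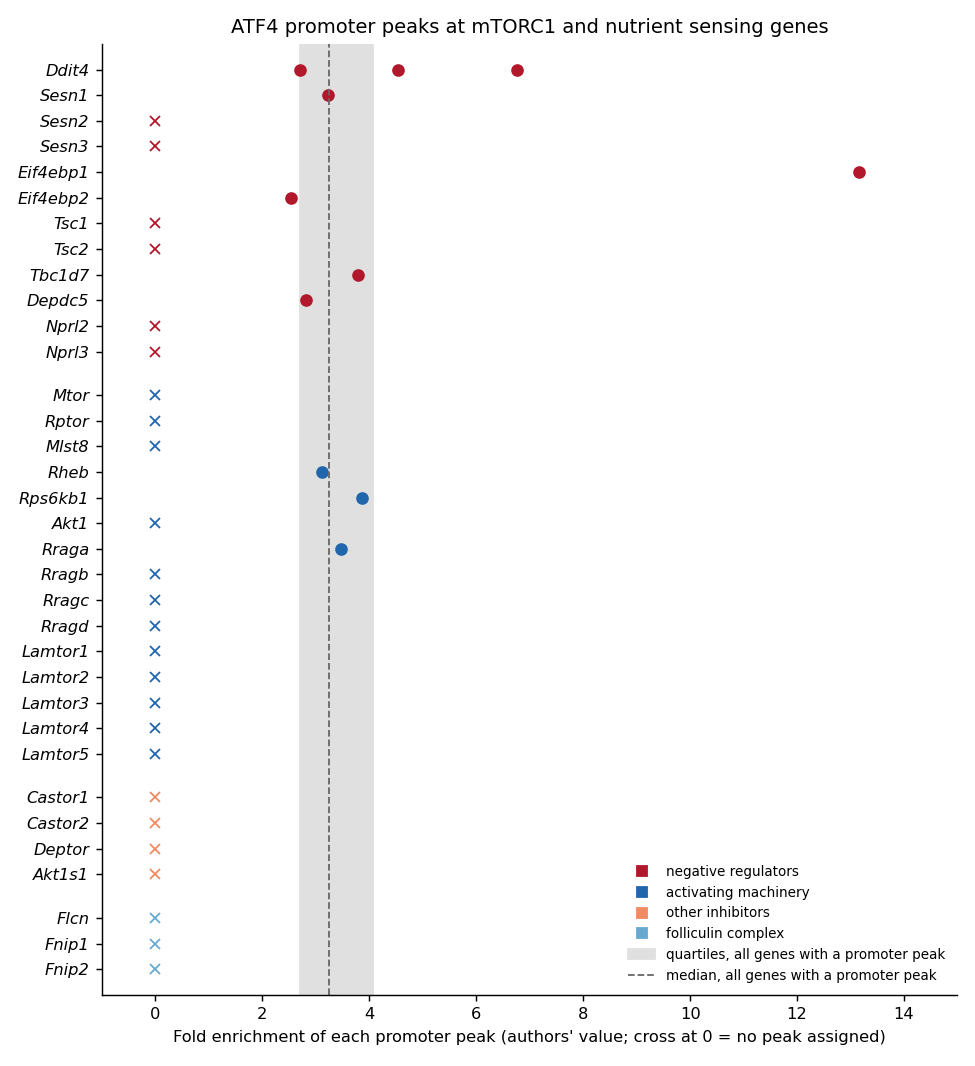
Fold enrichment (horizontal axis, the authors' value) of each promoter peak of the 34 genes, by role; crosses at 0 mark genes with no assigned peak. The grey band spans the quartiles 2.70 and 4.06 of all genes with a promoter peak and the dashed line is their median of 3.25; Eif4ebp1 at 13.1 and 2 of the 3 Ddit4 peaks lie above the band.

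The highest fold enrichment of the group was at Eif4ebp1, which encodes a repressor that binds the cap-binding translation factor until mTORC1 phosphorylates it. Its single peak lay on chromosome 8 at 27261081 to 27261439 (mm10), inside the gene and 754 bp downstream of the TSS. The peak had a fold enrichment of 13.1 and a −log10 q of 47.1. By fold enrichment of the strongest promoter peak Eif4ebp1 ranked 22 among 2476 protein-coding genes with one, and by −log10 q it ranked 129. Each of the 21 genes above it in fold enrichment also had a higher −log10 q in the same peak. The related repressor gene Eif4ebp2 stood at the other end of the group. Its peak, 817 bp downstream of the TSS (chromosome 10, 61451661 to 61451852), had a fold enrichment of 2.54 and a −log10 q of 1.93, which placed it at rank 2022 by fold enrichment. Both repressor genes thus had their peak past the start and none over it.

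Ddit4, which encodes a stress-induced protein that inhibits mTORC1 through the TSC complex, had 5 peaks, more than any other of the 34 genes. The strongest by fold enrichment, 6.77 with a −log10 q of 21.2, lay upstream on chromosome 10 at 59952726 to 59953053, 956 bp from the TSS and within no gene of the RefSeq table. A second peak covered the TSS (59951643 to 59951883), with a fold enrichment of 4.54 and a −log10 q of 21.7. These peaks were therefore apart in fold enrichment and close in −log10 q. Another peak of the Promoter class, 1885 bp downstream of the TSS (59949730 to 59949885), lay near the far end of this short gene. It had a fold enrichment of 2.71 and a −log10 q of 1.16, the only one of the 13 peaks with a q above 0.05. The other two peaks were Distal Intergenic, 18.0 and 22.5 kb upstream, with fold enrichments of 2.92 and 2.44 and −log10 q values of 2.04 and 3.06. At least 3 promoter peaks were assigned to 57 of the 2476 genes with any, or 2.30%. Ddit4 reached 3 only with the peak whose q was above 0.05. No share of all genes with 5 peaks of any class is given here. Ddit4 ranked 124 of 2476 by its strongest promoter peak and 322 by −log10 q. Eif4ebp1 and Ddit4 were the 2 of 34 genes, or 5.88%, with a promoter peak among the 455 strongest peaks of the list, those with a fold enrichment of at least 5.34. Of all protein-coding genes, 1.17% had one.

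**Figure D2:**
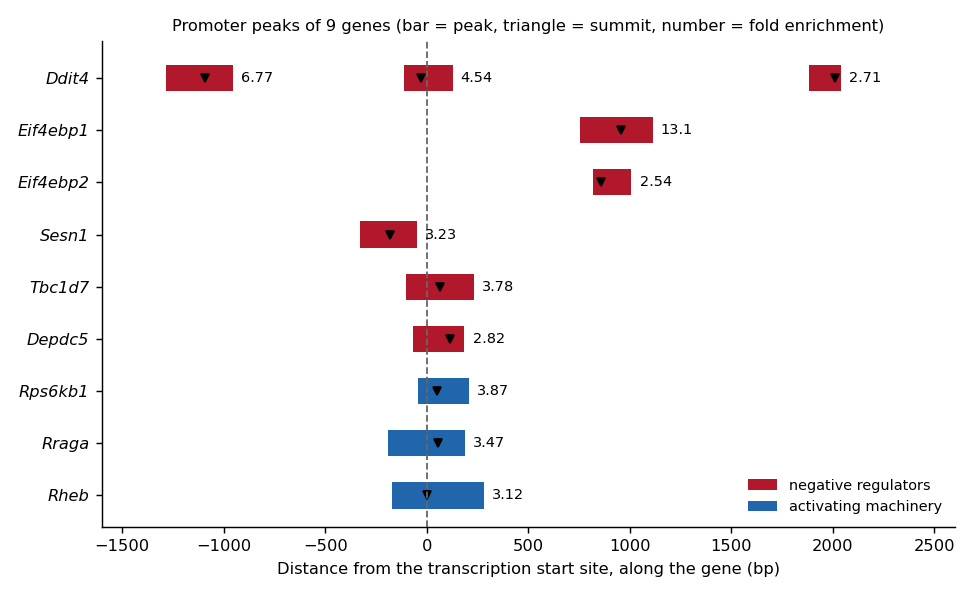
Promoter peaks of the 9 genes along the gene (horizontal axis, bp from the TSS, positive downstream), with the summit as a triangle and the fold enrichment beside each bar. Peaks of the 3 activating genes and of Tbc1d7 and Depdc5 cover the TSS, the Sesn1 peak ends 50 bp before it, and the Eif4ebp1 and Eif4ebp2 peaks begin 754 and 817 bp after it.

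The sestrins, leucine-responsive inhibitors that act on GATOR1 through GATOR2, were mostly without peaks. Sesn1 had 1 peak that ended 50 bp upstream of its TSS (chromosome 10, 41810245 to 41810524), with a fold enrichment of 3.23 and a −log10 q of 6.39, close to the medians of 3.25 and 6.90 over all genes with a promoter peak. No peak was assigned to Sesn2 or Sesn3. The nearest listed peak to the Sesn2 start was 82.6 kb away, assigned to Ptafr, and that to the Sesn3 start was 104 kb away, assigned to Endod1. In the TSC complex, the peak lay at the gene of its smallest subunit, Tbc1d7. That peak covered the TSS (chromosome 13, 43171268 to 43171605) with a fold enrichment of 3.78 and a −log10 q of 13.5. Tsc1 and Tsc2, the subunits that hold the complex together and switch off Rheb, had no peak within 58.1 and 87.1 kb of their starts. GATOR1 had a peak at Depdc5 alone of its 3 genes. It covered the TSS (chromosome 5, 32863578 to 32863831) with a fold enrichment of 2.82 and a −log10 q of 3.80. For Nprl2 and Nprl3 the nearest peaks were 93.0 and 41.0 kb away.

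On the activating side the 3 peaks all covered the TSS and were of middling strength. Rps6kb1, the kinase through which mTORC1 promotes ribosomal protein phosphorylation and translation, had a fold enrichment of 3.87 and a −log10 q of 15.8 (chromosome 11, 86544598 to 86544850). Rraga, a Rag GTPase, had a fold enrichment of 3.47 and a −log10 q of 14.5 (chromosome 4, 86575484 to 86575859). Rheb had a fold enrichment of 3.12 and a −log10 q of 7.86 (chromosome 5, 24842079 to 24842535), and its summit lay 3 bp past the TSS. The summits at Rps6kb1 and Rraga lay 49 and 54 bp past theirs. None of these peaks reached the upper quartile of 4.06 over all genes with a promoter peak, and all 3 were above the median −log10 q of 6.90.

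No peak was assigned to the subunits of mTORC1 itself, the kinase Mtor, the substrate-binding subunit Rptor and Mlst8. The same held for Akt1, the growth factor kinase that inactivates the TSC complex, for Rragb, Rragc and Rragd, and for all 5 Ragulator genes, Lamtor1 to Lamtor5. It held as well for the inhibitors outside the rule's groups, which are the arginine sensor genes Castor1 and Castor2 and the inhibitory subunits Deptor and Akt1s1. Flcn, Fnip1 and Fnip2, whose folliculin complex acts on the Rag GTPases as amino acids return, also had none. The spans of these and the other genes without an assigned peak, 25 genes covering 1176 kb in all, held 0 peaks. Since the 25 genes were picked for having no assigned peak, this count is not independent of that choice and adds no support. The nearest peak to the starts of the 25 genes was at a median distance of 84.3 kb, and the farthest was 3513 kb away, at Fnip2. For Lamtor3 and Deptor the distance was taken to the nearer end of the gene, since their starts were not at hand. Of the 25 genes, 3 had a peak within 10 kb of the start. The closest lay 3.74 kb from the Mtor start, with a fold enrichment of 2.65. For Akt1s1 the distance was 6.78 kb, with a fold enrichment of 2.42. A Pgp promoter peak with a fold enrichment of 3.08 lay 8.50 kb from the Mlst8 start. No peak assigned to another gene lay within 3 kb of the start of any of the 34 genes. Matching distances and counts over all protein-coding genes without a peak are not given, so these values describe the 34 genes only. An unlisted peak means that none passed the authors' peak calling, whose power at unknown depth cannot be given.

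**Figure D3:**
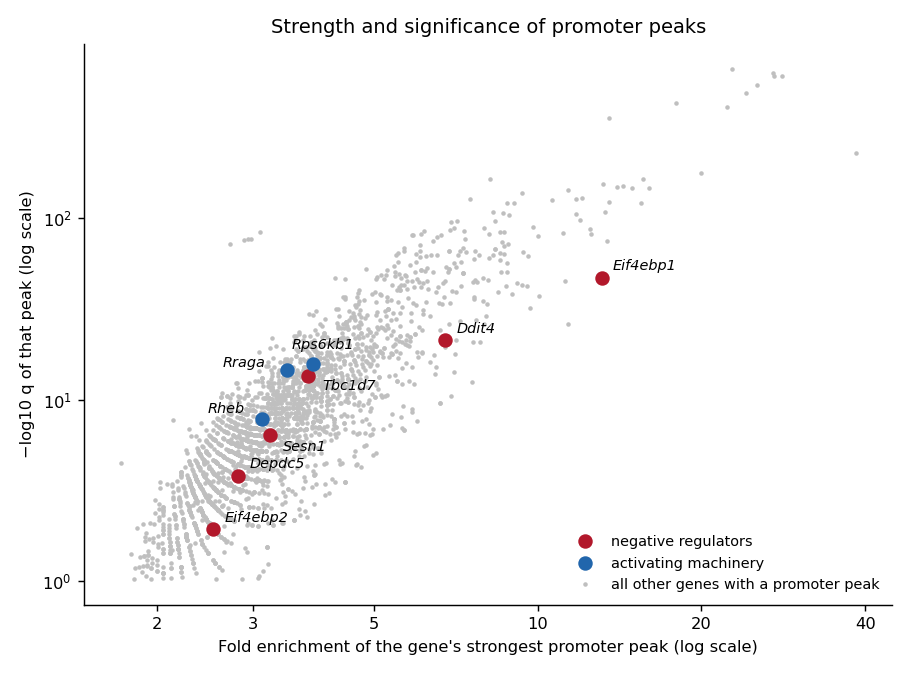
Fold enrichment of the strongest promoter peak of each gene (horizontal, log scale) against the −log10 q of that peak (vertical, log scale), for 9 mTORC1 and nutrient sensing genes and all other protein-coding genes with a promoter peak. Eif4ebp1 (13.1 and 47.1) and Ddit4 (6.77 and 21.2) lie apart from the other 7 genes, which have fold enrichments between 2.54 and 3.87.

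The range of fold enrichment was wider over the inhibitors with a peak than over the activators, but it was taken over more genes. It came from Eif4ebp1 and Ddit4, without which the inhibitors spanned 2.54 to 3.78. Over the 6 negative regulators the strongest promoter peak spanned 2.54 to 13.1 (median 3.51), and over the 3 activating genes it spanned 3.12 to 3.87 (median 3.47). The medians were thus close, and both lay near the 3.25 of all genes with a promoter peak. By −log10 q the medians were further apart: 9.94 over the 6 negative regulators and 14.5 over the 3 activating genes, against 6.90 over all genes. The highest −log10 q values of the 9 genes were still those of Eif4ebp1 (47.1) and Ddit4 (21.7), with Rps6kb1 next at 15.8. Above the overall median fold enrichment stood Eif4ebp1, Ddit4 and Tbc1d7 among the inhibitors and Rps6kb1 and Rraga among the activators. Above the upper quartile stood Eif4ebp1 and Ddit4. The 11 promoter peaks had a median width of 280 bp (156 to 457 bp), against 265 bp over 2849 promoter peaks of protein-coding genes. Of the 9 genes, 5 had a strongest promoter peak over the TSS, or 55.6%, against 66.8% of all genes with one.

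**Figure D4:**
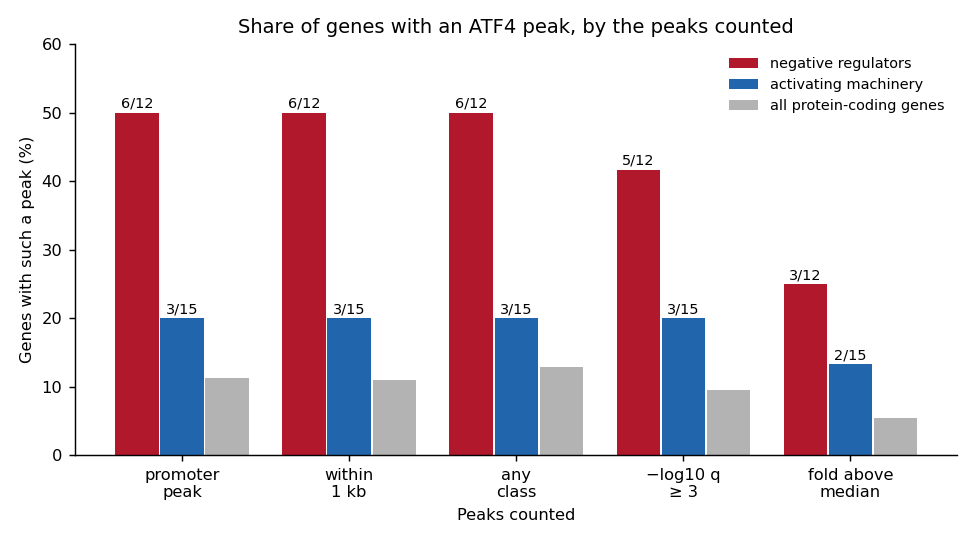
Share of genes with an ATF4 peak (vertical axis, percent) among negative regulators, activating machinery and all protein-coding genes, for 5 ways of counting peaks; the numbers above the bars are genes with a peak and genes in the group. The share of negative regulators goes down to 25% and that of activating genes to 13.3% when only peaks above the median fold enrichment of the list, 3.30, are counted.

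The share of negative regulators rested on weak peaks as well as strong ones. With a −log10 q of at least 3 required, 5 of 12 negative regulators and 3 of 15 activating genes had a promoter peak, against 9.51% of all protein-coding genes, and Eif4ebp2 was the gene lost. With a fold enrichment above 3.30, the median of the list, 3 of 12 and 2 of 15 did, against 5.46%, and Sesn1, Depdc5, Eif4ebp2 and Rheb were lost. Counting Castor1, Castor2, Deptor and Akt1s1 among the inhibitors gave 6 of 16, or 37.5%. Counting the folliculin complex among the activators gave 3 of 18, or 16.7%.

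Start regions are shown for the inhibitor genes Ddit4 and Tbc1d7 and the activator genes Rps6kb1 and Rraga, which had the highest fold enrichments of the peaks over a start in each group. Each runs 5′ to 3′ along the gene from 250 bases before the TSS, 300 bases in all, from RefSeq on GRCm38.p6, and capitals mark the bases inside the ATF4 peak. They cover chr10:59951721-59952020 on the minus strand, chr13:43171452-43171751 on the minus strand, chr11:86544758-86545057 on the minus strand and chr4:86575423-86575722 on the plus strand.
Ddit4: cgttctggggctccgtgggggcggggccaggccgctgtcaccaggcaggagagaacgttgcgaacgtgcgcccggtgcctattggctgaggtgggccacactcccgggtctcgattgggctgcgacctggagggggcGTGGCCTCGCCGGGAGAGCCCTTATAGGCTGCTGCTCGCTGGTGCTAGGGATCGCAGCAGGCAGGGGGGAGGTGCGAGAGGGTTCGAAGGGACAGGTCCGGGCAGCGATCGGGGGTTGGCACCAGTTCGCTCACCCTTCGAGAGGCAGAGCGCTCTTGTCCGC
Tbc1d7: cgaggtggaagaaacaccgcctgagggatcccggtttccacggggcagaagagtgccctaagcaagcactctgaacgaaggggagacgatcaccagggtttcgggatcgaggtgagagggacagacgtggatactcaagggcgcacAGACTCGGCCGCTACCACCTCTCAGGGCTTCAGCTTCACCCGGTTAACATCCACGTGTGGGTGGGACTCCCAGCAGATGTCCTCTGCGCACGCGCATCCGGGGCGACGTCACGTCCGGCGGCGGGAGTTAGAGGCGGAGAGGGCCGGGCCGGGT
Rps6kb1: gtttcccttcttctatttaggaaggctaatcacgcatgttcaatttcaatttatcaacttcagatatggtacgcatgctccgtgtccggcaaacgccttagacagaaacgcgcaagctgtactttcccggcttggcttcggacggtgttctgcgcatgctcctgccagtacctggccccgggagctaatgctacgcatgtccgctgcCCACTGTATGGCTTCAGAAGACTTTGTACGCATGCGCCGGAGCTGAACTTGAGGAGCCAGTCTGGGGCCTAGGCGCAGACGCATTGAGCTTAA
Rraga: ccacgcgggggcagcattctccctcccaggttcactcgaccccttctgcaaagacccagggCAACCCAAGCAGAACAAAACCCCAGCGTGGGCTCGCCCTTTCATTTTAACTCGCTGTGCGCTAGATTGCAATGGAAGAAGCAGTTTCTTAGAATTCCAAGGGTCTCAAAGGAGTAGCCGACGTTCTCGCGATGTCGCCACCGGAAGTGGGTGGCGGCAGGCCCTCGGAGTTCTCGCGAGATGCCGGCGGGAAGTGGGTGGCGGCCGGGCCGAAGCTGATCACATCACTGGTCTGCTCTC

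These windows were searched on both strands for 2 motifs of ATF4 and its relatives, the C/EBP-ATF composite element TGATGNAA and the cyclic AMP response element TGACGTCA. A window was found for 31 of the 34 genes, 33 windows in all, and 7 of them overlapped a peak, those of Ddit4, Sesn1, Tbc1d7, Depdc5, Rheb, Rps6kb1 and Rraga. Each of the 7 held only part of its peak, as few as 93 bases of the 253 bp peak at Rps6kb1. The summits at Rraga and Tbc1d7 fell outside their windows. None of the 7 held TGATGNAA, which was in 3.97% of all 32851 windows and in 3.27% of the 2294 windows that overlap a peak. None held TGACGTCA, which was in 1.79% of all windows and in 4.80% of those with a peak. The shorter TGACGT, part of TGACGTCA and added after the data were seen, was in 1 of the 7, against 7.51% of all windows and 16.04% of those with a peak. That match, read as ACGTCA on the strand shown, begins 1 base past the TSS of Tbc1d7, inside the peak. Eif4ebp1, with the highest fold enrichment of the group, was among the genes without a window. The windows also do not reach the strongest Ddit4 peak or the Eif4ebp2 peak. The motifs were therefore not searched at these peaks.

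Both motifs also occurred at start regions without a peak, shown here with the motif in capitals and 11 bases on each side. The Flcn stretch (chr11:59810070-59810099, minus strand) holds TGACGTCA from 49 bases before the TSS, and the Lamtor4 stretch (chr5:138255449-138255478, plus strand) holds TGATGNAA on the opposite strand from 22 bases before it. The nearest listed peaks were 304 kb from the Flcn start and 68.2 kb from that of Lamtor4.
Flcn: aatgtcagtttTGACGTCAcccctgcagaa
Lamtor4: taagactcctcTTACATCAccggactgttc

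Genes further along the pathway were read from a list of 50 that holds none of the 34. A promoter peak was assigned to 14 of them (28%), with all protein-coding genes at 11.3%. The translation outputs of mTORC1 had 5 of 8, growth factor signalling and mTORC2 had 4 of 11, AMPK subunits and their kinase 2 of 8, other sensors and relays 2 of 6, and GATOR2 1 of 5. KICSTOR, the lysosome and autophagy outputs and a set of further inhibitors and assembly factors, 4 genes each, had none. The strongest promoter peak was that of Larp1, which encodes an mTORC1-controlled repressor of ribosomal protein mRNAs, with a fold enrichment of 8.09 and a −log10 q of 33.8, at rank 71 of 2476. Next by fold enrichment came Irs2, an insulin receptor adaptor gene, at 5.31, and Lars, a leucyl-tRNA synthetase gene, at 5.06. Pdcd4, which encodes a translation inhibitor, had a fold enrichment of 4.64, and Eif4e, the gene of the cap-binding factor that Eif4ebp1 represses, had 4.06. The median fold enrichment was 3.47 over the 9 mTORC1 and nutrient sensing genes with a promoter peak and 2.95 over these 14. Larp1 was the only one of the 50 with a promoter peak among the 455 strongest.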

How the data were processed

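ATF4 ChIP-seq and input libraries were made from CD4+CD25+ mouse T cells fixed with 1% formaldehyde for 10 min, per the labels. The submitters' processing notes name Trim Galore, Bowtie2, MACS2 and deepTools with build mm10, whose versions were not at hand. The deposited table holds 1 list of 4544 peaks, and the authors' fold enrichment, −log10 p, −log10 q, annotation class, gene symbol and distance to the TSS are packed in 1 text column. The sources used here do not say how replicates and inputs entered the peak calls, or whether the replicates came from separate mice.

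The packed text was split at its separators and starts were raised by 1, after which all 4544 deposited distances were recovered. Genes came from a RefSeq table of GRCm38.p6 (mm10), with protein-coding genes on chromosomes 1 to 19, X and Y as background (21887). The strongest promoter peak of a gene was the one with the highest fold enrichment, and ranks by −log10 q used its highest −log10 q. All 34 genes are named, with every assigned peak and any peak of another gene within 3 kb of the start, and up to 6 of the further pathway genes with the strongest promoter peaks, except that a few genes are not reported here. Genes and lists were chosen with earlier results of these data known, so shares and medians are descriptions beside the background, without a test. The parsing and motif search were checked on made-up records. Alternatives covered the promoter distance, peak class, q, fold enrichment, assignment and gene groups. Python 3.11.15, numpy 2.4.6, pandas 2.3.3 and matplotlib 3.10.9 were used.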

Additional observations from a re-analysis of the deposited data

How the results depend on the processing

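The list gives no values per sample, so leaving out a replicate was not possible. No paired analysis was possible because the replicates have no values of their own. Counting only peaks above the median fold enrichment of the list lowered the negative regulators with a promoter peak to 3, against 6 with all promoter peaks, the activating genes to 2, against 3, and all 34 genes to 5, against 9. The motif count over the 7 windows with a peak was 0 for TGATGNAA, TGATGCAA and TGACGTCA, and 1 for TGACGT. The other alternatives that were run moved each count and median by less than 1.5 times: promoters within 1 kb, peaks of any class, a −log10 q of at least 3, any peak within 3 kb of the RefSeq start and other gene groups. Adding the other inhibitors or the folliculin complex could not change the counts, since those genes had no peak. It lowered the shares from 50% to 37.5% of inhibitors and from 20% to 16.7% of activators. The median percentile among all genes with a promoter peak was 58.7 for negative regulators and 58.6 for activating genes by fold enrichment. With −log10 q in its place, these medians, over 6 and 3 genes, were further apart, at 61.0 and 78.2. Eif4ebp1 then ranked 129 in place of 22 and Ddit4 322 in place of 124 of 2476 genes; the cause was not tested. The motif search over the peak intervals was not run, since no genome sequence was used here. Depth is unknown, so a gene without a peak is not shown to lack ATF4.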
